A study of Mus musculus with 4 samples.

Results

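The genes described here encode the subunits and some assembly factors of the mitochondrial respiratory chain that are carried in the nuclear genome. They were chosen by symbol: every gene of the count tables whose name starts with Nduf, Uqcr or Atp5, or with Cox followed by a digit from 4 to 8, together with Sdha, Sdhb, Sdhc and Sdhd, and without Cox7a1 and Cox8b. The rule gave 92 of 32285 genes. By role they were 7 core subunits, 30 accessory subunits and 8 assembly factors of complex I, 4 subunits of complex II, 8 of complex III and 12 of complex IV, 5 subunits of the F1 head and 12 of the Fo and peripheral stalk parts of ATP synthase, and 6 complex IV isoforms known from restricted tissues. They lay on 19 chromosomes, and 91 were annotated as protein coding, the exception being Ndufb1-ps.

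The study profiled mouse fat by single-nucleus RNA sequencing, with 1 library in each of 4 groups. All mice were fed a high-fat diet. The labels place the libraries in brown adipose tissue (BAT) or beige adipose tissue (BeAT), each from a surgery group or a sham group. The molecule is recorded as nuclear RNA, whereas the protocol describes digestion to a suspension of cells. With 1 library per group there are no replicates, so nothing below was tested between conditions. Every interval printed beside a value is a 95% interval that covers counting error alone.

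Respiratory complexes I to IV pass electrons from NADH and succinate to oxygen and pump protons across the inner mitochondrial membrane, and ATP synthase, complex V, uses the proton gradient to make ATP. Most subunits are encoded in the nucleus and imported, while the catalytic hydrophobic cores of complexes I, III and IV and part of ATP synthase are encoded in mitochondrial DNA. Thermogenic fat is known for its dense mitochondria, in which uncoupling protein 1 (Ucp1) lets protons return without making ATP.

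The 4 libraries held between 5952 and 10445 barcodes and 23118695 to 60409801 UMIs (unique molecular identifiers, 1 per captured molecule), and 5302 to 9970 nuclei were kept. Any pair of libraries shared 36 to 72 cell barcodes. Nuclei were clustered and classes named from marker genes. Below, a run of 4 values follows 1 order of libraries: sham and then surgery for the BAT label, and sham and then surgery for the BeAT label. Adipocyte-like nuclei numbered 4108, 569, 4886 and 490. The 11 markers of brown and beige fat that were checked gave a mixed picture in these nuclei. Ucp1, which defines both tissues, reached 2 UMIs in BAT sham, 3 in BeAT sham and 0 in both surgery libraries, Elovl3 was at 0 in all 4, and Zic1 had 1 UMI, in BAT sham. Prdm16, at 248.8, 36.6, 260.7 and 325.7 UMIs per 1000000 (CPM), Ppara, at 107.1, 58.8, 105.6 and 102.3, and Cidea, at 29.9, 2.22, 60.2 and 34.9, were detected in every library, and Lhx8, Otop1, Cox8b, Cox7a1 and Dio2 lay between 0 and 19.1 CPM. BAT surgery held 5648 epithelial-like nuclei, and its adipocyte-like nuclei carried epididymal RNA, with the sperm-protective peroxidase Gpx5 at 577.8 CPM against 0 UMIs in BAT sham. In that library 513 of the 569 adipocyte-like nuclei came from cluster 18, which held 1 or 2 nuclei of each other library, and 35 came from cluster 1, which held most of the adipocyte-like nuclei of BAT sham (3149) and BeAT surgery (445). BeAT sham was split between cluster 1 (2449) and cluster 2 (2436), and cluster 2 held 958 nuclei of BAT sham and 43 of BeAT surgery. BeAT surgery was rich in lymphoid nuclei, with 1924 B cell-like and 1572 T or NK-like. The median share of mitochondrially encoded UMIs in adipocyte-like nuclei was 0.0833%, 0.0288%, 0.214% and 0.041%.

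Levels are given as CPM, the UMIs of a gene divided by all UMIs of its class and library and multiplied by 1000000. A gene was compared between 2 libraries where they together held at least 50 UMIs of it, and it was counted as higher or lower where the ratio was at least 1.5-fold and its interval excluded 1. Reads of nuclear RNA come largely from unspliced transcripts, so the length of a gene bears on its count. The members were short: their median span from first to last annotated base was 7419 bp (953 to 155909 bp), 62 of 92 spanned under 10 kb and 14 spanned 20 kb or more, against a median of 24489 bp over the 14373 genes detected. Each ratio is therefore given as measured and also less the span trend, meaning after the median log2 ratio of all compared genes in its bin of span, 1 of 20, was taken off. Shares over all genes are given for the main settings only. Member counts under other settings have no such share beside them and cannot be set against a background.

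Summed over all 92 members, adipocyte-like nuclei held 3491 CPM (95% interval 3468 to 3514), 2990 (2934 to 3047), 5212 (5181 to 5244) and 2511 (2464 to 2559). BeAT sham stood highest and BeAT surgery lowest. Short genes carried most of this range. The 62 members under 10 kb summed to 2131, 1601, 3556 and 1186 CPM, highest in BeAT sham and lowest in BeAT surgery, while the 14 members of 20 kb or more summed to 814.4, 901.2, 911.3 and 877.1. The 6 restricted isoforms had too few UMIs in these nuclei to be compared, and the other 86 members were compared. Of these, 79 were highest in BeAT sham and 64 lowest in BeAT surgery. The 7 that were not highest in BeAT sham had a median span of 33041 bp, against 7206 bp for the other 79. BeAT sham was also the highest library in other RNA of the same nuclei. Mitochondrially encoded genes held 1580, 509.8, 3687 and 651.3 CPM, the haemoglobin genes of red blood cells 90.3, 63.2, 258.8 and 13.1, and ribosomal protein genes 2671, 2905, 4036 and 1574. Their part in the members' levels was not tested. The members stood higher in cluster 2 than in cluster 1, at 6855 against 4125 CPM in BeAT sham and 4848 against 3261 in BAT sham, and so did mitochondrially encoded genes, at 5727 against 2337 and 3138 against 1316.

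**Figure D1:**
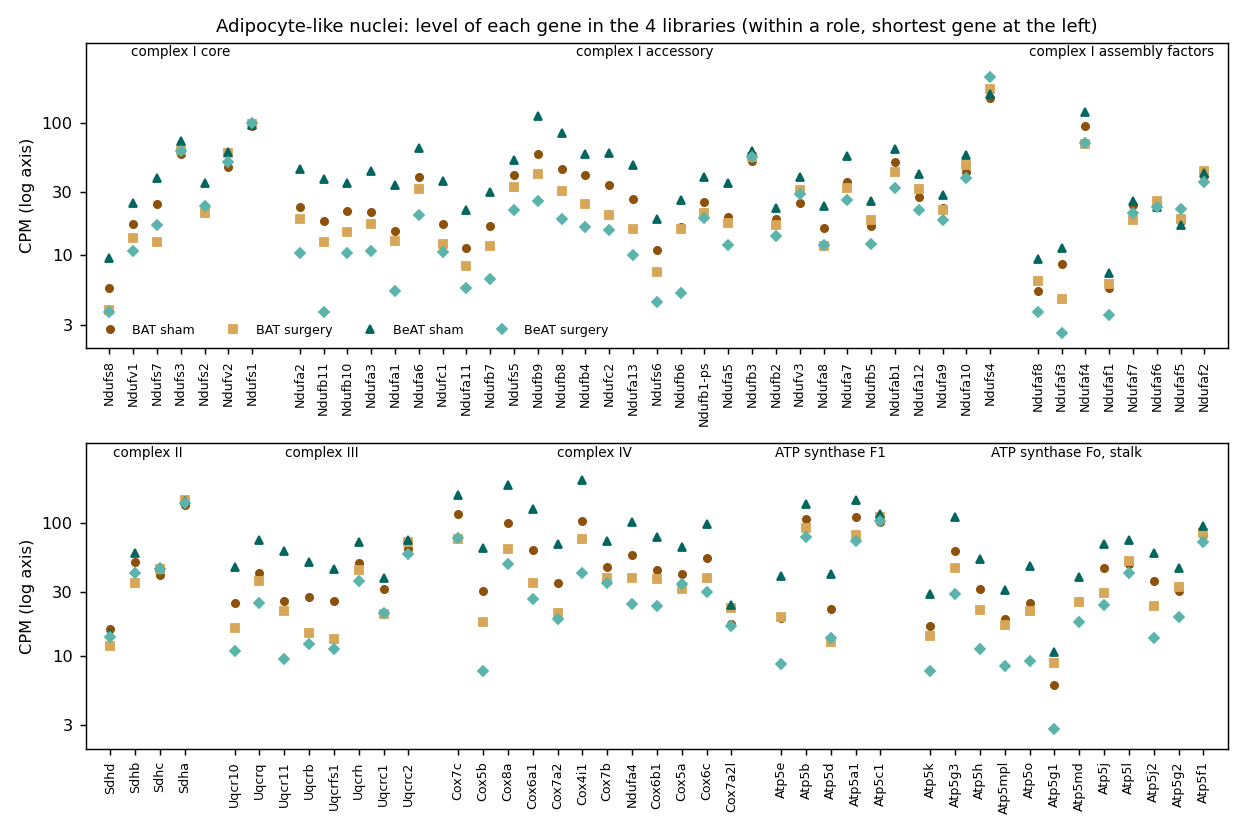
Level of each of the 86 members compared in adipocyte-like nuclei, in CPM on a log axis, grouped by role with the shortest gene at the left and 1 point per library. BeAT sham is the highest point for 79 genes and BeAT surgery the lowest for 64, while Ndufs1 and Sdha, at the right of their roles, lie at nearly the same level in all 4 libraries.

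Per kilobase of span, the leading members were short genes: the complex IV subunits Cox7c and Cox8a and Atp5g3, a gene for the membrane ring of ATP synthase. Across members with at least 20 UMIs, which are not independent replicates, the Spearman correlation of CPM with span was only 0.287, 0.389, 0.083 and 0.502, so dividing by span puts short genes first in part by construction. Cox7c held 56.0, 36.1, 77.9 and 37.0 CPM per kb, and Cox8a 40.6, 26.1, 79.3 and 19.99. Cox4i1, the largest nuclear-encoded subunit of complex IV, stood at 17.2, 12.7, 35.2 and 7.09. The long accessory-subunit gene Ndufs4, 100464 bp in length, had the most UMIs of its role as measured but only 1.54, 1.77, 1.62 and 2.18 CPM per kb. The median member stood at 3.68, 2.90, 5.66 and 2.20 CPM per kb.

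In adipocyte-like nuclei labelled BeAT, 66 of 86 members compared were lower in surgery than in sham and 0 were higher, against 24.3% lower and 11.9% higher among the 12479 genes compared. The median member had a log2 ratio of -1.28, and the median gene -0.09. Less the span trend, 44 members were lower and 1 was higher, against 12.8% and 12.0% of all genes, with a median of -0.64, and 43 members were lower on both measures. All 25 members under 5 kb were lower as measured, as were 68.5% of all 1396 genes of that span, and 2 of 13 members of 20 kb or more were lower, against 9.09% of all genes of that span. The size depended on the control library: against the BAT sham library in place of BeAT sham the median was -0.68, and -0.14 less the span trend, with 15 members lower in place of 44. Within cluster 1 alone, the median was -1.07, and -0.35 less the span trend, with 27 lower. Restricted to nuclei with under 0.1% mitochondrially encoded UMIs, it was -0.80, and -0.11 less the span trend, with 18 lower.

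**Figure D2:**
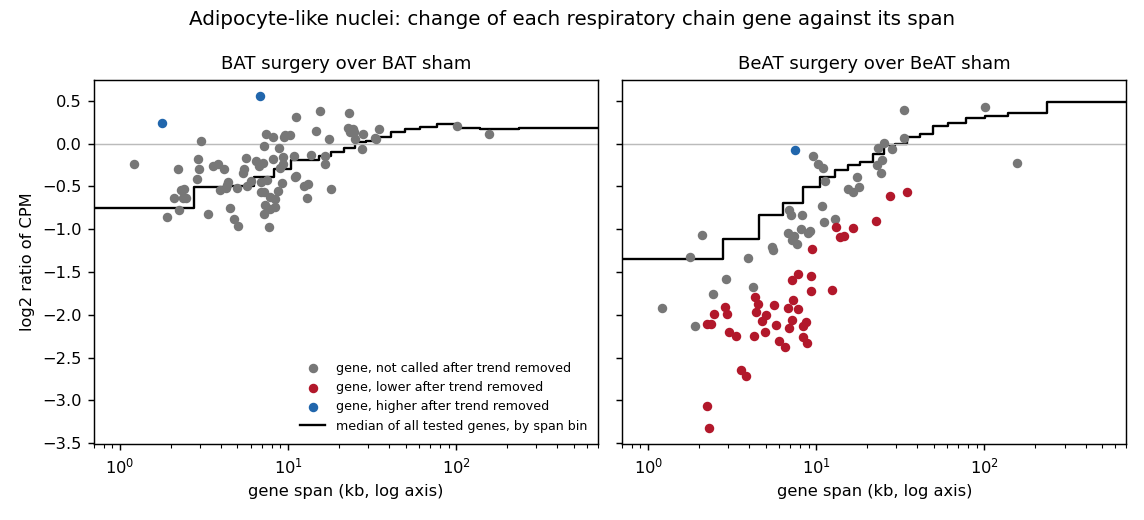
Log2 ratio of surgery to sham in adipocyte-like nuclei against gene span in kb on a log axis, for BAT and BeAT, with 1 point per member. The step line is the median of all genes in each bin of span, and colour marks the 44 members lower (red) and the single member higher (blue) less the span trend in BeAT, and the 2 higher in BAT.

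Complex I, which takes electrons from NADH, split by role in BeAT. Of its 30 accessory subunits, 26 were lower in surgery as measured and 22 less the span trend (medians -1.72 and -0.78), whereas of its 7 core subunits 3 and 0 were lower (-0.57 and -0.22), and of its 8 assembly factors 4 and 0 (-0.53 and -0.03). Less the span trend, the members' log2 ratios in BeAT still had a Spearman correlation of 0.385 with span. Median spans were 8542 bp for accessory subunits, 10194 bp for core subunits, 9149.5 bp for assembly factors and 20715 bp for complex II. The part of span in the differences between roles was not tested. Ndufb11, an accessory subunit of the membrane arm (chrX:20615326-20617619), stood at 18.1, 12.5, 37.4 and 3.75 CPM. That was 16 UMIs against 773 in the BeAT libraries, a 9.97-fold lower level in surgery (6.10 to 17.5) and a log2 ratio of -1.97 less the span trend, the largest fall among the members compared. Ndufa1, another small membrane-arm subunit, stood at 15.3, 12.8, 33.8 and 5.39 CPM and was 6.26-fold lower in BeAT surgery (4.14 to 9.95). Ndufb6 followed at 16.4, 15.8, 26.0 and 5.16, with a 5.05-fold difference (3.30 to 8.12). For all of them BeAT surgery was the lowest library and BeAT sham the highest.

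Ndufa13, also known as GRIM-19, a subunit at the junction of both arms, stood at 26.4, 15.8, 48.3 and 10.1 CPM, 4.79-fold lower in BeAT surgery (3.53 to 6.65). It shares bases with Yjefn3 on the same strand, so its reads may be split between both genes. Ndufs6, which is needed for the late assembly of the electron input module, fell from 18.9 to 4.46 CPM, 4.24-fold (2.68 to 7.11). Ndufa2, the accessory subunit with the most UMIs per kb, stood at 23.1, 18.9, 44.4 and 10.3 CPM, and its log2 ratio less the span trend was -0.76 in BeAT.

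The core subunits moved less. Ndufs1, the large iron-sulphur subunit of the peripheral arm, stood at 94.1, 97.6, 95.1 and 99.7 CPM, so that the highest and lowest library differed by less than 1.5-fold. Ndufs3 was at 58.4, 62.4, 72.5 and 61.4, with log2 ratios less the span trend of 0.39 in BAT and 0.27 in BeAT. Its core partner Ndufs7, at 24.5, 12.5, 37.9 and 16.9, was lower in both surgery libraries as measured and in neither less the span trend (log2 ratios of -0.58 in BAT and -0.47 in BeAT). The long accessory-subunit gene Ndufs4 stood at 154.4, 178.4, 162.9 and 219.5, highest in BeAT surgery. Among assembly factors, Ndufaf4 had the most UMIs, with 94.5, 69.4, 120.0 and 70.1 CPM and a log2 ratio of -0.08 less the span trend in BeAT.

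Complex II, succinate dehydrogenase, is also an enzyme of the tricarboxylic acid cycle and has no subunit encoded in mitochondria. None of its 4 members was lower in BeAT surgery on either measure, and the median log2 ratio was -0.07, and 0.01 less the span trend. Sdha, the flavoprotein that oxidises succinate, stood at 138.1, 149.5, 147.4 and 140.7 CPM, and Sdhb, the iron-sulphur subunit, at 51.4, 35.5, 60.01 and 42.2. Sdhd, a membrane anchor, stood at 16.0, 11.9, 14.6 and 13.8 CPM and was the 1 member counted as higher less the span trend in BeAT, with a log2 ratio of 0.62 (0.19 to 1.03), although it was not higher as measured.

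Of 8 complex III members, 7 were lower in BeAT surgery and 4 less the span trend (medians -1.79 and -0.67). Uqcr11, a small supernumerary subunit (chr10:80402997-80406830), stood at 25.9, 21.9, 61.4 and 9.38 CPM, a 6.55-fold lower level in BeAT surgery (4.78 to 9.21) and -1.59 less the span trend. The core protein Uqcrc2, 24349 bp long, stood at 64.0, 72.1, 74.3 and 58.4 and was not lower on either measure. Uqcrq, another small supernumerary subunit, led complex III in UMIs per kb and stood at 41.8, 36.9, 75.0 and 25.1 CPM.

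Complex IV, cytochrome c oxidase, transfers electrons to oxygen, and 11 of its 12 common members were lower in BeAT surgery, 8 of them less the span trend (medians -1.80 and -0.95). Cox5b, a zinc-binding subunit (chr1:36691449-36693681), stood at 30.8, 18.03, 64.6 and 7.74 CPM, highest in BeAT sham and lowest in BeAT surgery. The BeAT libraries differed 8.35-fold (5.92 to 12.2), and the log2 ratio less the span trend was -1.72. Cox4i1 stood at 103.0, 76.3, 210.7 and 42.5, a 4.96-fold difference in BeAT (4.28 to 5.79) that left -1.48 less the span trend. Cox7c was an exception: it stood at 116.9, 75.5, 162.7 and 77.4, 2.10-fold lower in BeAT surgery (1.88 to 2.36), yet its log2 ratio less the span trend was 0.27, as the median gene of its bin, which holds spans close to its 2089 bp, had a lower ratio still.

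In ATP synthase, 4 of 5 members of the F1 head were lower in BeAT surgery and 2 less the span trend (medians -1.02 and -0.52), against 11 and 8 of the 12 members of Fo and the peripheral stalk (-1.90 and -0.81). Atp5b, the catalytic beta subunit, stood at 107.7, 92.4, 140.0 and 78.6 CPM, and the alpha subunit Atp5a1 at 111.2, 80.7, 150.1 and 73.9. Atp5o, which joins the head to the stalk, stood at 25.2, 21.9, 47.6 and 9.15 and was 5.21-fold lower in BeAT surgery (3.78 to 7.37), with -1.69 less the span trend. Atp5j2, subunit f of the membrane part, stood at 36.9, 23.6, 59.5 and 13.6, 4.37-fold lower (3.36 to 5.79). The stalk subunit Atp5f1, 17402 bp long, stood at 81.4, 84.3, 94.6 and 72.2 and was not lower on either measure.

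In adipocyte-like nuclei labelled BAT, 17 of 86 members were lower in surgery and 0 higher, against 19.9% lower and 11.7% higher among the 13021 genes compared. That share of members is close to the background. The 17 were spread over the chain, with 5 of complex IV (Cox5b, Cox6a1, Cox7a2, Cox7c and Cox8a), 4 of complex III (Uqcrfs1, Uqcrb, Uqcrc1 and Uqcr10), 3 accessory subunits of complex I (Ndufa13, Ndufb4 and Ndufc2), 3 of ATP synthase (Atp5d, Atp5j and Atp5j2), the core subunit Ndufs7 and the assembly factor Ndufaf3. Uqcrfs1, the Rieske iron-sulphur protein of complex III, fell from 25.9 to 13.3 CPM (1.94-fold, 1.45 to 2.66), and Ndufs7 from 24.5 to 12.5 CPM (1.96-fold, 1.45 to 2.71), the largest falls of the 17. Less the span trend, 0 members were lower and 2 higher, against 15.2% and 12.5% of all genes, and the median moved from -0.29 to 0.06. The members higher less the span trend were Ndufaf8, an assembly factor at 5.41 and 6.38 CPM (log2 0.98, 0.28 to 1.63), and Atp5g1, a gene for the membrane ring of ATP synthase at 6.05 and 8.88 (log2 0.95, 0.35 to 1.5), neither of which was higher as measured. Nuclei under 0.1% mitochondrially encoded UMIs made up 474 of 569 in BAT surgery and 2365 of 4108 in BAT sham. Between them the median log2 ratio of the members was 0.01, with 3 lower, and less the span trend it was 0.29, with 14 higher. The shares of all genes in that setting are not given, so these counts do not set the members apart. Against BeAT sham in place of BAT sham the median was -0.96 and 58 members were lower, 29 of them less the span trend. Among the 35 and 3149 nuclei of cluster 1 alone, the median was -0.62 less the span trend with 12 members lower, and 5 were lower as measured. With so few surgery nuclei, counts of 0 set to 3 UMIs raise the ratios of members and of the genes behind the span trend. The -0.62 is therefore not read as a fall within that cluster, and the part of this floor was not tested.

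Both sham libraries were set against each other to see how much the members differed without surgery. BAT sham was lower than BeAT sham in 51 of 86 members and higher in 0, against 5.12% lower and 5.79% higher among 13919 genes. Less the span trend, 38 were lower and 0 higher, against 3.6% and 5.52%, and the medians were -0.65 and -0.52. Uqcr11 differed most, 2.37-fold lower in BAT sham (2.16 to 2.61) and -1.01 less the span trend. Ndufc1, a complex I membrane-arm subunit at 17.1 CPM against 36.5, was 2.13-fold lower (1.89 to 2.41). Ndufb9 at 57.5 and 111.9, Cox7a2 at 35.6 and 69.8, Cox6c at 54.6 and 98.3, and Atp5e, the small epsilon subunit of the F1 head, at 19.3 and 39.9 CPM were all lower in BAT sham as well. Within cluster 1 alone 21 members were lower as measured and 2 less the span trend (medians -0.37 and -0.31), and with doublets kept 30 and 16. Within nuclei under 0.1% mitochondrially encoded UMIs, 12 members were lower as measured and 2 less the span trend (medians -0.23 and -0.17). Less the span trend, the members' log2 ratios between the shams still had a Spearman correlation of 0.464 with span. This comparison shares the BeAT sham library with that between surgery and sham in BeAT.

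Between the 2 surgery libraries, 24 of 80 members were higher in BAT surgery and 0 lower, against 10.4% higher and 7.03% lower among 9541 genes. Less the span trend, 12 were higher and 0 lower, against 7.66% and 8.92%, and the members' log2 ratios still had a Spearman correlation of -0.407 with span. Ndufb6, at 15.8 CPM in BAT surgery and 5.16 in BeAT surgery, and Ndufb11, at 12.5 and 3.75, had the largest log2 ratios less the span trend, 1.48 and 1.38. Atp5mpl, a small membrane subunit of ATP synthase, stood at 16.9 and 8.44. The higher members numbered 1 after thinning each nucleus to 1000 UMIs, 7 among genes with at least 200 UMIs and 3 within cluster 1.

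**Figure D3:**
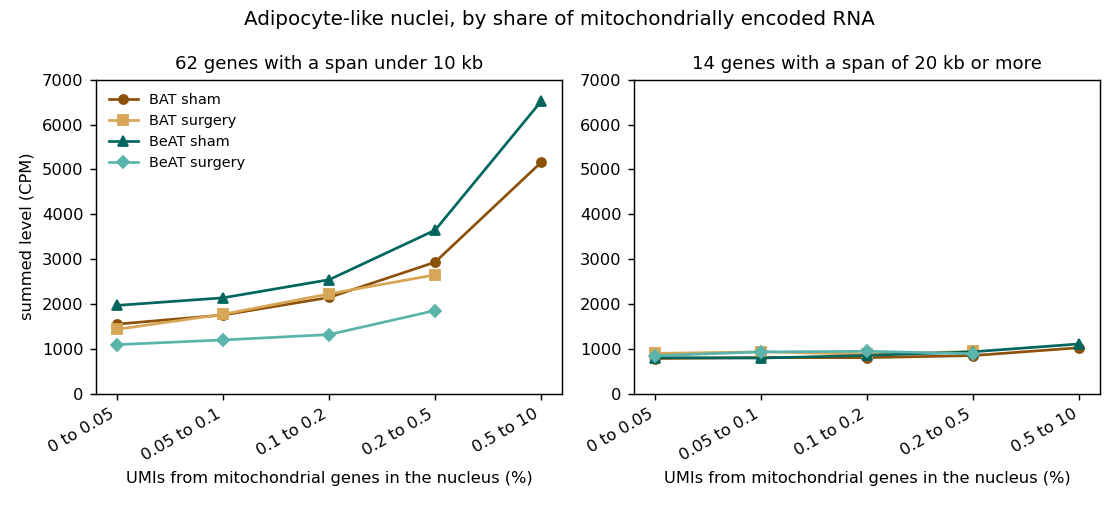
Summed level of the 62 members under 10 kb (left) and the 14 of 20 kb or more (right) in adipocyte-like nuclei, in CPM, by bins of the share of mitochondrially encoded UMIs per nucleus, with 1 line per library. The short members are higher in each following bin in all 4 libraries, and the long members stay between 780.5 and 1106.

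Nuclei were also divided by their share of mitochondrially encoded UMIs, a measure of cytoplasmic or mitochondrial RNA carried with a nucleus. In the bin under 0.05% the members under 10 kb summed to 1548, 1432, 1966 and 1091 CPM. In the bin from 0.2% to 0.5% they summed to 2930, 2647, 3644 and 1852. In nuclei from 0.5% to 10% they reached 5156 in BAT sham and 6518 in BeAT sham, while the surgery libraries had 8 and 11 nuclei there and are not given. BeAT surgery was the lowest and BeAT sham the highest library in each of the 4 bins that all libraries filled. The members of 20 kb or more lay between 780.5 and 942.4 over those 4 bins. The share of nuclei in each bin differed between libraries, and how much of the difference between libraries it carries was not tested.

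The members' promoters are shown because the transcription factors NRF1, GABPA (an ETS factor) and YY1 are known regulators of respiratory chain genes. RefSeq windows of 300 bases on GRCm38.p6, from 250 before to 50 after the annotated start, were found for 73 of 92 members, in 78 windows. The letters GCGCATGCG of NRF1, searched on both strands, were in 10 member windows (12.8%), against 1.75% of all 32851 windows. The letters AAGATGGCG of YY1 were in 8 (10.3%, against 1.4%), after the start in 7 of those 8 genes, between bases 11 and 36. CCGGAAGT of ETS factors was in 5 (6.41%, against 3.89%), AAGGTCA of ESRRA and other nuclear receptors in 8 (10.3%, against 4.72%), and GGGCGGG of SP1, CCAAT of NFY and TATAAA of the TATA box in 35.9%, 43.6% and 10.3% (against 25.6%, 37.4% and 13.6%). Members lower in BeAT on both measures carried the NRF1 letters in 5 of 41 windows (12.2%), and the other compared members in 5 of 35 (14.3%). The following stretches run 5′ to 3′ from 80 bases before the start to 20 after it, with the NRF1 and ETS letters in capitals on whichever strand they were found.
Uqcr11, chr10:80406802-80406901, minus strand: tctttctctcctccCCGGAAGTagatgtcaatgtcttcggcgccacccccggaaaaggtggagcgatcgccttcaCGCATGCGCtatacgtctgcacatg
Atp5g2, chr15:102671028-102671127, minus strand: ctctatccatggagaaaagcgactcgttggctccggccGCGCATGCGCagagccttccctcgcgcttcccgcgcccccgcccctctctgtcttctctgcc
Cox8a, chr19:7217597-7217696, minus strand: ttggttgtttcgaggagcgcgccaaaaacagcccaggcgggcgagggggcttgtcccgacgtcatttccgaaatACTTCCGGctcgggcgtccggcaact
Ndufs3, chr2:90904702-90904801, minus strand: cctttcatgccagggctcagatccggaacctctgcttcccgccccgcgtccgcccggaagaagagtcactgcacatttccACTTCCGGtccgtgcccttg
Cox5b, chr1:36691407-36691506, plus strand: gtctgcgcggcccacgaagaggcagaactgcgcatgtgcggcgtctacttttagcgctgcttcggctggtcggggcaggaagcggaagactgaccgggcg
Whether any of these letters bear on the change in BeAT was not tested. Uqcr11 carried both letter sets and was among the members that fell most in BeAT. Atp5g2, a gene for the membrane ring of ATP synthase with the NRF1 letters on both strands in an overlapping palindrome, fell 2.35-fold (1.87 to 2.97). Cox8a and Ndufs3 each carried the ETS letters within the stretch, and their log2 ratios less the span trend in BeAT were -0.65 and 0.27. Cox5b, which fell 8.35-fold, had neither set of letters in the stretch, which says only that these letters are not in it.

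Outside adipocyte-like nuclei the members followed the same order of sham libraries over surgery libraries. Endothelial-like nuclei held 6791, 2690, 13290 and 2724 CPM summed over the members. Adipose progenitor-like nuclei held 3497, 2322, 5298 and 1683, macrophage-like nuclei 3529, 2175, 4786 and 2010, and T or NK-like nuclei 4472, 3064, 6539 and 2346. With adipocyte-like nuclei included, BeAT sham was the highest library in 7 of 7 classes it could be compared in, and surgery was below sham in 6 of 6 classes in BAT and in 6 of 6 in BeAT. The 6 in BAT include epithelial-like nuclei, which came from different clusters: 57 of 59 in BAT sham were cluster 38, which held 0 nuclei of BAT surgery. The highest named class was Schwann-like in BeAT sham at 15770, followed by endothelial-like in BeAT sham, and skeletal muscle-like nuclei in BAT sham held 10160. The Schwann-like value rests on 61 nuclei with a median share of mitochondrially encoded UMIs of 2.03%. Schwann-like nuclei of BAT sham held 4488. Over 33 pairs of class and library, which share libraries and depth, the summed level of members under 10 kb ranged 17.1-fold and had a Spearman correlation of 0.83 with the level of mitochondrially encoded genes and 0.87 with that of haemoglobin, while members of 20 kb or more ranged less, with correlations of 0.45 and 0.44.

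**Figure D4:**
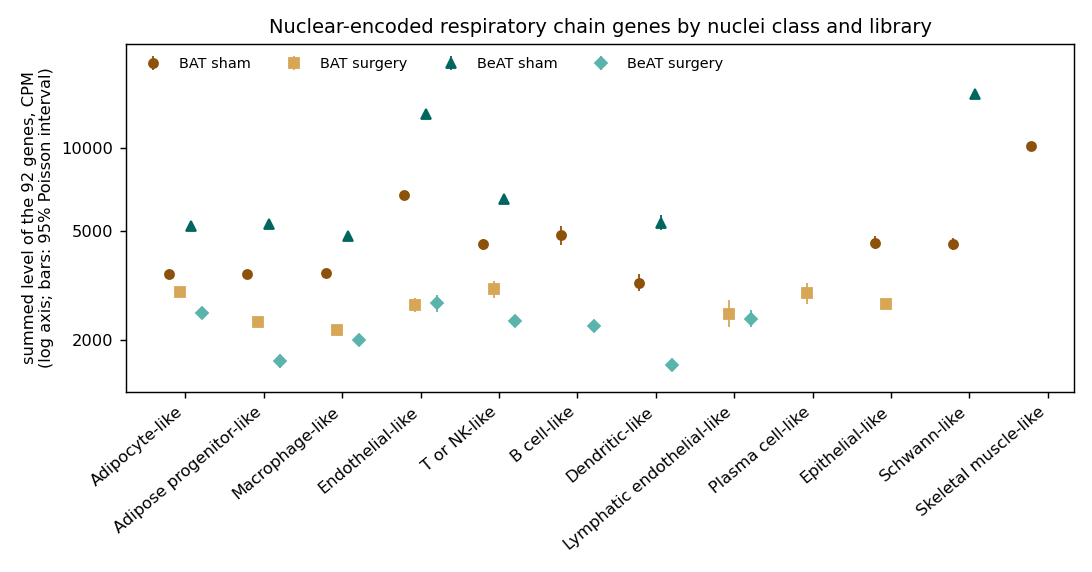
Summed level of the 92 members in each named class and library, in CPM on a log axis, with 95% Poisson intervals. BeAT sham is highest in all 7 classes in which it and another library have at least 50 nuclei.

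In adipose progenitor-like nuclei, which give rise to fat cells, less the span trend 13 of 86 members were lower in BAT surgery and 0 higher, against 14.1% and 13.4% of all genes. The share of lower members in BAT is thus close to the background. In BeAT surgery 42 of 81 were lower and 0 higher, against 13.1% and 12.1%. Sdhb fell from 41.3 to 16.5 CPM in BAT (2.51-fold, 1.77 to 3.65), and Ndufab1, the acyl carrier protein that is also a subunit of complex I, from 34.8 to 15.1. In BeAT, Ndufa4, a complex IV subunit despite its name, fell from 108.2 to 10.7 (10.1-fold, 4.84 to 25.3), and Ndufab1 from 50.2 to 9.20. Most of these BAT surgery nuclei (484 of 583) came from cluster 16, while the sham nuclei came mainly from clusters 7 and 11. Within nuclei under 0.1% mitochondrially encoded UMIs the medians less the span trend were -0.11 in BAT and -0.58 in BeAT.

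In endothelial-like nuclei 23 of 81 members were lower in BAT surgery less the span trend and 2 higher, against 12.5% and 11.1%, and 40 of 79 were lower in BeAT surgery and 1 higher, against 13.6% and 13%. Atp5f1 fell from 109.5 to 25.8 CPM in BAT (4.24-fold, 2.33 to 8.63). Ndufs7 and Ndufa1 had 3 UMIs each in BAT surgery, against 128 and 132 in BAT sham, ratios of 0.109 (0.0222 to 0.326) and 0.106 (0.0215 to 0.316). In BeAT, Uqcr10 had 1 UMI against 212, a ratio of 0.0228 (0.000575 to 0.128), and Ndufb8 had 3 against 343, a ratio of 0.0423 (0.00868 to 0.125). Endothelial-like nuclei held 1383, 415.1, 9006 and 262.6 CPM of haemoglobin genes, and their median share of mitochondrially encoded UMIs was 0.368%, 0.0854%, 1.09% and 0.15%, and the part of either in these ratios was not tested.

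Macrophage-like nuclei had 35 of 84 members lower in BAT surgery less the span trend and 0 higher, against 12.8% and 11.1%, and 29 of 75 lower in BeAT surgery and 1 higher, against 15% and 14.5%. The groups drew on different clusters: BAT sham had 1065 nuclei in cluster 4 and 156 in cluster 12, BAT surgery 519 and 444, BeAT sham 411 and 226, and BeAT surgery 75 and 148. Ndufa4 fell from 58.1 to 16.8 CPM in BAT (3.45-fold, 2.56 to 4.74) and from 87.2 to 14.5 in BeAT (6.01-fold, 3.35 to 11.9). Atp5d, the delta subunit of the F1 head, fell from 34.6 to 11.1 in BAT, and in BeAT it had 3 UMIs against 77, a ratio of 0.0876 (0.0177 to 0.266). Between macrophage-like nuclei under 0.1% mitochondrially encoded UMIs the BeAT median turned to 0.14, and to 0.27 less the span trend, on 127 surgery and 111 sham nuclei. The BAT median there was -0.06 less the span trend.

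T or NK-like nuclei had 13 members compared in BAT, of which 0 were lower and 0 higher less the span trend, against 8.77% and 7.12%, and 2 were lower as measured. In BeAT 45 of 71 were lower less the span trend and 2 higher, against 13.4% and 8.12%. Ndufb8 fell from 149.1 to 14.4 CPM (10.3-fold, 6.88 to 15.4), Uqcr11 from 109.3 to 7.56 (14.5-fold, 8.65 to 24.2) and Ndufa13 from 149.1 to 19.3 (7.74-fold, 5.27 to 11.3). Ndufs1, by contrast, rose from 49.7 to 100.4 (2.02-fold, 1.21 to 3.64). The sham library held 188 of these nuclei and the surgery library 1572.

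Single members also differed between classes, given here as a description since the classes come from clusters of the same nuclei. Cox6a2, the complex IV isoform of heart and skeletal muscle, stood at 310.0 CPM per kb in skeletal muscle-like nuclei of BAT sham (359 UMIs), against 48.8 for its common partner Cox6a1 in the same nuclei. In adipocyte-like nuclei of BAT sham it had 10 UMIs (0.415 CPM per kb), and 0 UMIs in the other 3 libraries, where 3 UMIs would be 0.832, 0.145 and 0.704 CPM. Ndufa4l2, a relative of Ndufa4 known to be induced in low oxygen, and Cox4i2, the isoform of Cox4i1 known from lung and vascular cells, stood out in cluster 14, which was left unnamed and was led by Rgs5, Myh11 and Pdgfrb, genes of pericytes and smooth muscle. Ndufa4l2 was itself among the 10 leading genes of that cluster. It held 85.5 CPM per kb in BAT sham, 45.6 in BAT surgery (13 UMIs) and 107.2 in BeAT sham, above Ndufa4 in the same nuclei at 24.8, 7.45 and 48.7. That order depends on the scaling: not divided by span, Ndufa4l2 stood at 187.1, 99.7 and 234.6 CPM and Ndufa4 at 178.8, 53.7 and 351.1, so that Ndufa4 was the higher in BeAT sham. Cox4i2 held 8.82, 4.24 and 10.2 there, below Cox4i1 at 65.9, 34.6 and 110.9. The testis isoforms Cox8c, Cox7b2 and Cox6b2 were at or near 0 in adipocyte-like nuclei: Cox8c had 0 UMIs in all 4 libraries, Cox7b2 0 to 2 and Cox6b2 1 to 28.

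**Figure D5:**
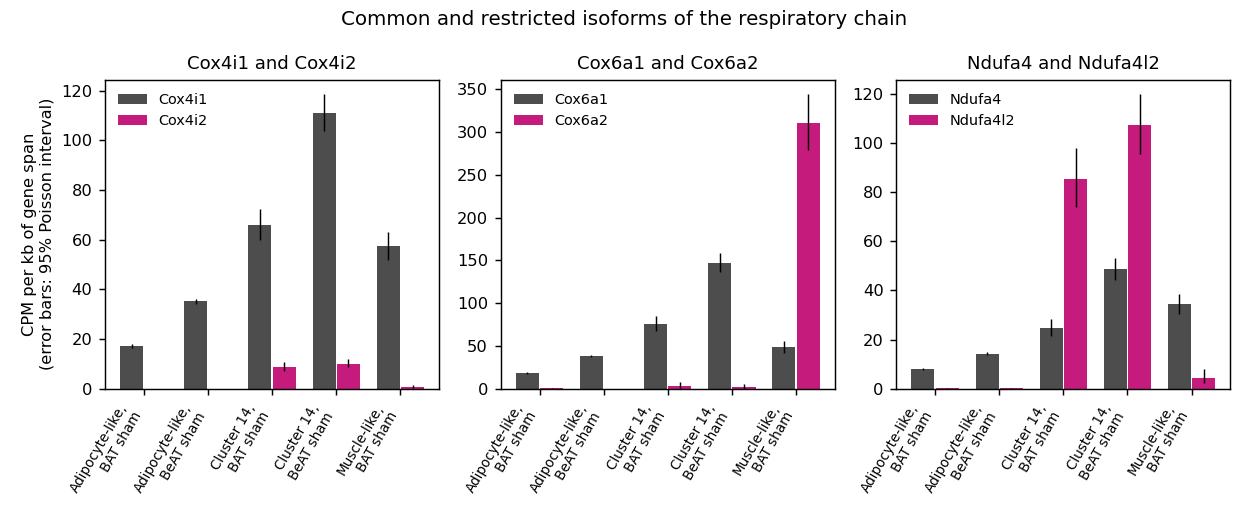
Common and restricted isoforms in CPM per kb of span, with 95% Poisson intervals, in adipocyte-like nuclei, cluster 14 and skeletal muscle-like nuclei. Cox6a2 exceeds Cox6a1 in skeletal muscle-like nuclei, and per kb Ndufa4l2 exceeds Ndufa4 in cluster 14, an order that turns in BeAT sham when levels are not divided by span, while Cox4i2 stays below Cox4i1.

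After Cox6a2, the widest ranges between named classes of a library were those of Uqcrb, Atp5g1, Ndufaf4 and Ndufb6, and 3 of these 4 rest on a lowest class with 1 UMI. Atp5g1 ranged from 6.05 CPM in adipocyte-like nuclei (153 UMIs) to 97.9 in skeletal muscle-like nuclei, both of BAT sham. In the same library Uqcrb, the ubiquinone-binding subunit of complex III, ranged from 7.11 in B cell-like nuclei (1 UMI) to 144.0 in skeletal muscle-like nuclei, and Ndufb6 from 3.93 in dendritic-like (1 UMI) to 53.5 in skeletal muscle-like nuclei. In BeAT sham Ndufaf4 ranged from 7.62 in Schwann-like nuclei (1 UMI) to 120.0 in adipocyte-like nuclei.

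Genes around the chain were followed in the same adipocyte-like nuclei. Cytochrome c (Cycs), which carries electrons between complexes III and IV, stood at 25.2, 22.7, 55.1 and 19.9 CPM, and was lower in BeAT surgery as measured but not less the span trend. All 13 mitochondrially encoded genes were lower in BeAT surgery (median log2 ratio -2.43), and 10 of 12 in BAT surgery (-1.53). Of 29 assembly factors of complexes II to V, 15 were lower and 2 higher in BeAT surgery (all genes 24.3% and 11.9%), and 7 and 5 less the span trend (12.8% and 12.0%). In BAT 5 were lower and 0 higher, a share near the 19.9% of all genes, and 2 were lower and 4 higher less the span trend. Of 16 genes of the tricarboxylic acid cycle, 3 were lower and 1 higher in BeAT, neither share above the 24.3% and 11.9% of all genes. The 1 higher was citrate synthase (Cs), which rose from 104.4 to 182.5 CPM, and from 105.3 to 188.9 in BAT. Ribosomal protein genes, short as well, had medians less the span trend of -0.37 in BeAT and 0.70 in BAT, against -0.64 and 0.06 for the members. Of 15 regulators of mitochondrial genes compared in BAT, 2 were lower and 1 higher, against 19.9% and 11.7% of all genes. Their median log2 ratio was 0.18. Ppargc1a, a coactivator of mitochondrial genes, stood at 122.5, 52.7, 125.6 and 137.9 CPM, lower in BAT surgery, where Prdm16 and Cidea also fell. The epididymal RNA and the separate cluster of BAT surgery move with these values, and their part was not tested. Of the members, 30 share bases with a gene on the opposite strand, among them Cox4i1, Ndufb11, Ndufb6, Atp5o, Ndufs6, Uqcrb and Atp5d, and whether counting used strand is not given in the sources used here, so reads of both genes cannot be told apart.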

How the data were processed

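Single-nucleus RNA was measured in 4 libraries, 1 per group, so groups were compared with no test. The deposited tables of the authors hold raw UMI counts per gene and barcode. The submitters' processing notes list Seurat (4 and 4.4.0) and the build mm10. Neither aligner nor counter is named in the sources used here.

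Barcodes entered with 500 or more UMIs from 300 or more genes, and with mitochondrially encoded UMIs below 10%. Doublets were removed with the Scrublet method (expected rate 6%, its automatic threshold, and the top 6% for BeAT sham, where that threshold marked 0), 446 to 811 per library. Clusters came from the Leiden method at resolution 1.0 (scanpy 1.11.5, leidenalg 0.10.2), on counts scaled to 10000, with 2000 genes, 30 components and 15 nearest nuclei. A cluster took a class name where at least 3 markers were 2-fold over the median cluster, with a mean marker fold of at least 4 and no unrelated class reaching 60% of the score. Those limits, and leaving haemoglobin genes out of the last condition, were chosen after the clusters were seen.

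UMIs were summed per class and library with at least 50 nuclei and divided by the class total. Ratios carry exact conditional binomial 95% intervals, and levels exact Poisson ones. A count of 0 was set to 3 UMIs in ratios. Spans came from GENCODE M21 (GRCm38, the build called mm10), which held all 92 members. Scripts were tested on simulated data.

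The members and gene lists were chosen with earlier results of these data known. The genes named are those with the most UMIs, as counted and per kb, in each role, up to 8 per direction and adipocyte comparison counted both before and after the span trend, up to 3 per direction in other classes, the restricted isoforms, and the 5 with the widest range between classes. Other genes with values, such as Cox8a, Atp5g2, Sdhd and Ndufaf8, were added after their values were seen. Alternatives changed the UMI minimum, scaling, depth, doublets, clusters, control library, span correction and members. The limit of 0.1% mitochondrially encoded UMIs was chosen after seeing the data.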

Additional observations from a re-analysis of the deposited data

Results flagged for a closer look

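Atp5g1, one of the genes for the membrane ring of ATP synthase, had opposite directions less the span trend in adipocyte-like nuclei under the 2 tissue labels. Its log2 ratio of surgery to sham was 0.95 in BAT, on 32 UMIs in surgery and 153 in sham, and -1.22 in BeAT, on 12 and 220 UMIs. Each interval excluded a ratio of 1 in its own direction. As measured the BAT log2 ratio was 0.55, not counted as higher, and over the alternatives it ranged from -0.26, against BeAT sham, to 1.86, within cluster 1. The 1.86 is not a measured rise. All 32 UMIs of Atp5g1 in the adipocyte-like nuclei of BAT surgery lay in cluster 18. The gene was thus undetected in cluster 1 of that library, and its ratio there rests on the floor set for undetected genes. The adipocyte-like nuclei of BAT surgery carry epididymal RNA, and Atp5g1 stood at 32.1 CPM (1248 UMIs) in the epithelial-like nuclei of that library against 8.88 in its adipocyte-like nuclei. The part of that RNA was not tested. The difference between the labels was not tested, since each rests on 1 library per group.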

How the results depend on the processing

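Values are median log2 ratios over the members, first as measured and then less the span trend, and the cause of each shift was not tested unless the setting itself removes UMIs, nuclei or genes. With the other label's sham as control, surgery over sham in adipocyte-like nuclei was -0.96 and -0.41 in BAT and -0.68 and -0.14 in BeAT. In other classes it was -1.35 and -0.70 (BAT) and -1.39 and -0.61 (BeAT) in progenitor-like, -2.53 and -1.10 and then -1.39 and -0.57 in endothelial-like, -1.28 and -0.73 and then -1.13 as measured in macrophage-like, and -1.38 and -0.39 and then -1.09 and -0.69 in T or NK-like nuclei. Under 0.1% mitochondrially encoded UMIs, adipocyte-like nuclei gave 0.012 and 0.29 in BAT, -0.80 and -0.11 in BeAT and -0.23 and -0.17 between the shams, where Atp5g1 turned to 0.027 and Ndufs6 to 0.007. There progenitor-like nuclei gave -0.30 and -0.11 (BAT) and -0.82 and -0.58 (BeAT), and macrophage-like nuclei -0.085 and -0.055 (BAT) and 0.14 and 0.27 (BeAT). For endothelial-like and T or NK-like nuclei that setting left under 20 nuclei in a library or under 5 members and gave no value, as did 200 UMIs and thinning for T or NK-like nuclei in BAT.

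Within the shared cluster 1, with 35 BAT surgery nuclei, the value less the span trend was -0.62 in BAT and -0.35 in BeAT. The shams gave -0.37 and -0.31 there, and the surgery libraries 0.092. Single genes turned: Ndufa13 to 0.13 and Uqcrb to 0.084 (BAT), Atp5g3 to -0.16 (between surgery libraries). In BAT surgery 50 of the 54 UMIs of Uqcrb in adipocyte-like nuclei lay in cluster 18, so its cluster 1 value rests on few UMIs. With doublets kept, the shams gave -0.48 and -0.40, endothelial-like nuclei -1.12 and -0.46 (BAT) and -1.80 and -0.67 (BeAT), and macrophage-like nuclei -1.93 and -0.96 (BeAT). Size factors gave 0.23 between the surgery libraries. At resolution 0.5, progenitor-like nuclei gave -0.90 and -0.43 in BAT, and macrophage-like nuclei -0.62 less the span trend in BAT. Thinning to 1000 UMIs raised the summed adipocyte-like level to 3619, 3070, 5375 and 2658 CPM and gave 0.21 between the surgery libraries, -0.22 (BAT) and -0.55 (BeAT) less the span trend in progenitor-like, -1.07 and -0.36 (BAT) and -0.72 less the span trend (BeAT) in endothelial-like, -0.53 and -0.055 (BAT) and -0.33 less the span trend (BeAT) in macrophage-like, and -0.94 and -0.62 in T or NK-like nuclei of BeAT. At 200 UMIs the values less the span trend were -0.70 for progenitor-like and -0.63 for endothelial-like (BeAT), -0.25 and -0.31 for macrophage-like (BAT and BeAT), and -0.48 as measured and -0.50 less the span trend for T or NK-like nuclei (BeAT), and at 20 UMIs -0.35 less the span trend for T or NK-like nuclei in BAT.

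No median moved beyond its interval with 10 span bins, a lowess curve on span, at least 1000 UMIs per nucleus, totals without mitochondrial and epididymal genes, or members without assembly factors and pseudogenes. The interval of a median was taken over the member genes and does not describe counting error. It treats the members as independent replicates, which they are not. Staying within it is therefore a rough guide to size and no test. Counts moved as well, and they are given without the share over all genes in each setting. Members lower in adipocyte-like nuclei ranged from 3 to 58 in BAT (17 as reported) and 48 to 67 in BeAT (66), and less the span trend from 0 to 29 (0) and from 15 to 49 (44), with 11 in BAT under size factors, 20 in BeAT after thinning and 27 in cluster 1. Between the shams, keeping doublets left 30 of 51 and cluster 1 left 21, and less the span trend 16 and 2 of 38. Between the surgery libraries 24 higher members became 7 at 200 UMIs, 1 after thinning and 3 in cluster 1. Less the span trend, BeAT counts ranged from 0 to 44 in progenitor-like (42 as reported), 4 to 54 in endothelial-like (40), 1 to 53 in macrophage-like (29) and 8 to 54 in T or NK-like nuclei (45), and BAT counts from 5 to 47 (13), 3 to 55 (23), 1 to 48 (35) and 0 to 3 (0). Outside T or NK-like nuclei of BAT the lowest came from thinning, 200 UMIs or low mitochondrial shares, which leave fewer UMIs or genes by construction. Medians moved as well in several of these settings, as given above, and what lowered the counts was not tested. Depth limits members with few UMIs, such as Ndufb11 with 16 in BeAT surgery. No paired analysis was possible because each group has 1 library and no test.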
